A study of Mus musculus with 6 samples.

Results

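The lysosome module of primary mouse chondrocytes was followed through 39 genes, taken as the rows of the deposited expression table whose gene symbol is that of a proton pump subunit, a cathepsin or another lysosomal gene on a fixed list. All 39 symbols were found among the 55401 genes of the table, and all 39 passed the filter on low counts, so none is left out of the counts given here. RNA sequencing covered 6 libraries, 3 from Nf2-knockout chondrocytes and 3 from control chondrocytes, all from cartilage tissue. The submitters' design text describes both groups as primary cultured chondrocytes on a floxed Nf2 background, Nf2f/f, that were allowed to differentiate. Nf2 encodes merlin, an activator of the Hippo kinases. The treatment label of the knockout libraries names TCF21 overexpression while that of the other group reads control, and neither the titles nor the design text mention TCF21. Whether that agent was present in the knockout cells therefore cannot be told from the labels, and it would be confounded with the knockout. The Cre driver, the age of the animals and whether the 3 replicates of a group came from separate animals or cultures are not given. The p-values therefore measure how far these libraries spread, and that spread may be technical.

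The libraries held 50906043 to 63748798 counts each. Levels are given as CPM, for which counts were divided by library sizes corrected with TMM factors, and levels of different genes are compared only in the deposited FPKM, which also divides by transcript length. Nf2 itself was at 87.9, 101 and 97.4 CPM in the knockout libraries, against 126, 133 and 122 CPM in the control libraries. It was lower by 0.41 on the log2 scale (SE 0.09; edgeR adjusted p = 0.0305) with no overlap, although most of its RNA was still present. The call was lost in all 6 fits without 1 library, at adjusted p-values from 0.0518 to 0.123, and in 4 of the 8 other settings, while the log2 fold change stayed between −0.45 and −0.29. The exact two-sided permutation test gave p = 0.1, the smallest possible with 3 against 3 libraries. Summed markers of chondrocytes were at 1769, 1903 and 1014 CPM in knockout libraries and at 842, 1260 and 1164 CPM in control libraries. Among them Col2a1, the collagen II gene, was at 324 to 719 CPM in knockout libraries and at 174 to 269 CPM in control libraries. Acan, the aggrecan gene, was lower in level, at 3.55 to 12.6 CPM in knockout libraries and at 11.0 to 15.5 CPM in control libraries. Markers of the labelled cell type were thus detected in every library. In bulk RNA, fewer cells of one type cannot be told apart from less RNA per cell.

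Lysosomes are acidic compartments in which proteases, glycosidases and lipid-binding proteins break down material from endocytosis and autophagy. The vacuolar ATPase, or V-ATPase, acidifies them. Its cytosolic V1 sector hydrolyses ATP and turns a rotor that drives protons through the membrane-embedded V0 sector. Many of these genes can be activated by TFEB and related transcription factors that bind a short DNA element, the CLEAR element, in their promoters. In cartilage, secreted cathepsins also cut collagen and aggrecan, and osteoclasts, the bone-resorbing cells next to it, use special pump subunits to acidify the outside.

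In Nf2-knockout chondrocytes 5 of the 39 genes fell and 1 rose at an adjusted p under 0.05 in edgeR's quasi-likelihood test. The genes that fell were the pump subunits Atp6v1a and Atp6v0d2, the protease gene Ctsb, the membrane protein gene Lamp2 and Psap, the precursor of the saposins. The gene that rose was Glb1, which encodes beta-galactosidase. Among all 18218 genes tested, 9.29% were called in either direction, 4.11% higher and 5.18% lower. The share was 15.4% for the 39 lysosomal genes, but it depended on scaling. With library size only, DESeq2 size factors or limma on log2(FPKM + 1), 3 of them were called lower and 1 higher. Those settings called 1837, 1664 and 1715 of all genes, against 1693 in the main fit. The 39 genes were chosen with earlier results of these data known, so their share was not tested. Fold changes ran from −1.65 to 0.39 on the log2 scale, with a median of −0.10 against −0.01 over all genes tested. Of the 39 genes, 25 had a negative and 14 a positive fold change. The median depended on scaling, at 0.00 with library size only and 0.02 with limma on log2(FPKM + 1). The median of all genes tested moved as well, to 0.09 and 0.04, so that of the 39 genes stayed below it. Of all 1693 calls 44.2% were higher, against 61.5% with library size only and 62.4% with that limma fit. CPM of the groups did not overlap for 15 genes, or 38.5%, against 32.9% of all genes tested. At an unadjusted p under 0.05 there were 11 genes, or 28.2%, against 24.8% of all genes.

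The share of all counts taken by the 39 genes was 2.21%, 2.21% and 1.99% in knockout libraries and 2.34%, 2.58% and 2.65% in control libraries. All 3 knockout libraries lay below the lowest control library. The 39 genes together averaged 20691 CPM in knockout and 26123 CPM in control chondrocytes, of which Ctsb alone made up 3160 CPM in knockout and 5854 CPM in control chondrocytes. In summed FPKM the groups overlapped, at 6768, 6525 and 5823 in knockout libraries and 6528, 7199 and 7451 in control libraries. The pattern across genes was uneven, since Atp6v1a, Atp6v0d2 and Ctsb kept their call under nearly every setting and Lamp2, Psap and Glb1 did not. Without 1 library at a time, 2 to 4 of the 39 genes were called lower and 0 or 1 was called higher, with 1 to 4 higher at an unadjusted p under 0.05. The lowest count, 2, came without knockout replicate 1. The number of genes called among all genes moved as well, to between 629 and 1186 against 1693 with all 6 libraries.

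**Figure D1:**
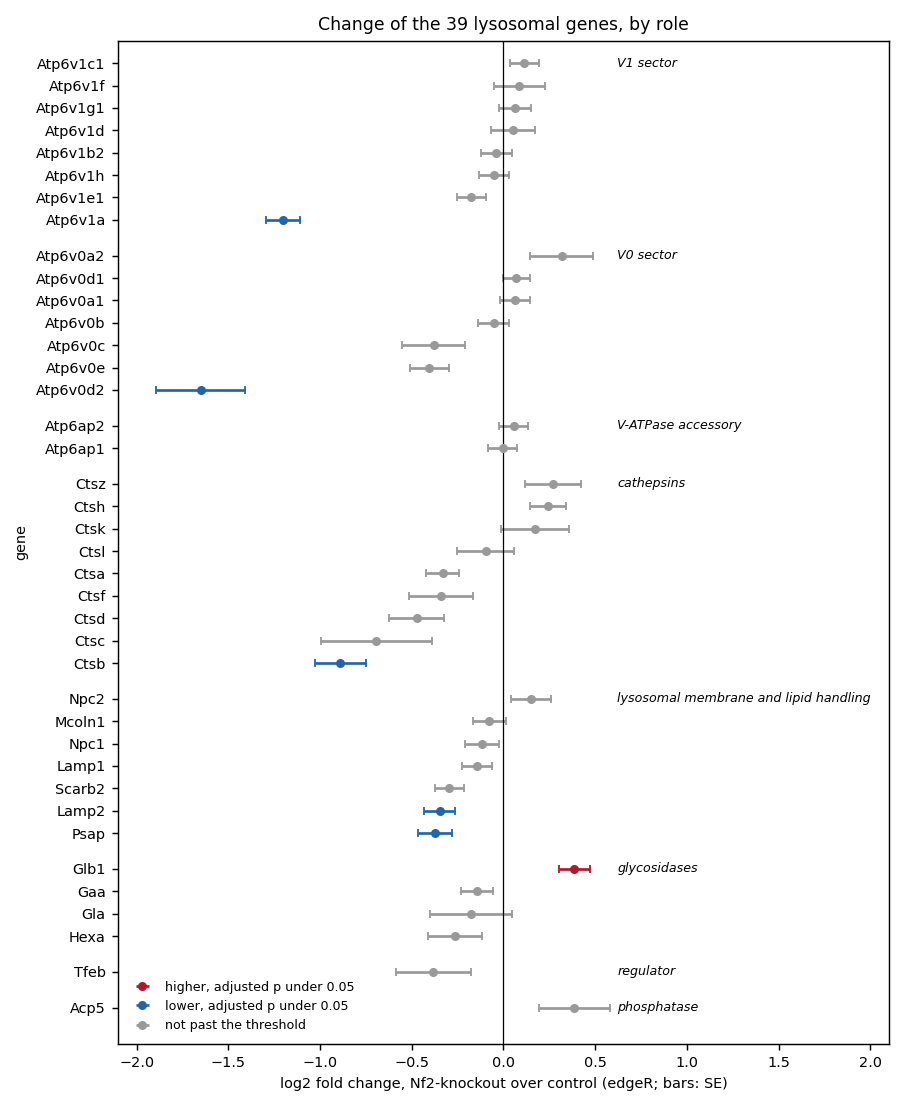
Log2 fold changes, Nf2-knockout over control, of the 39 lysosomal genes grouped by role; points are estimates and bars are 1 SE from edgeR. Atp6v0d2 at −1.65, Atp6v1a at −1.20 and Ctsb at −0.89 stand to the left, Glb1 at 0.39 is the called gene on the right, and most of the other genes lie near 0.

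The V1 sector was represented by 8 genes, of which 1 fell and 7 were not called, with a median log2 fold change of 0.01. That is 12.5% called, against 9.29% of all genes tested. Atp6v1a encodes subunit A, which carries the catalytic ATP site. It was at 191, 206 and 197 CPM in knockout libraries, against 445, 503 and 422 CPM in control libraries. Every knockout library was well below the lowest control library. The gene averaged 198 ± 7.45 CPM in knockout chondrocytes and 457 ± 42.0 CPM in control chondrocytes (SD, n = 3 each), and fell by 56.6%. On the log2 scale the change was −1.20 (SE 0.09; edgeR adjusted p = 0.00317). Without any 1 library it stayed between −1.26 and −1.13 and kept its call, and all 8 other fits called it too. The gene, ENSMUSG00000052459, lies on the minus strand of chromosome 16 from 44085402 to 44139705 (GRCm38).

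Atp6v1b2 encodes the partner subunit B, and its product alternates with subunit A in the ATP-binding ring. It was at 295, 279.9 and 296 CPM in knockout libraries and at 306, 315 and 275 CPM in control libraries, and these ranges overlapped. The estimated log2 change was −0.04 (SE 0.08; edgeR adjusted p = 0.819). In FPKM the ratio of Atp6v1a to Atp6v1b2 was 0.568, 0.646 and 0.585 in knockout libraries, against 1.28, 1.40 and 1.35 in control libraries. RNA for subunit A was thus below that for subunit B in all 3 knockout libraries and above it in all 3 control libraries. The 6 remaining V1 genes had log2 fold changes between −0.17 and 0.11, with adjusted p-values from 0.229 to 0.84. They encode the stalk subunits C, D, E, F and G (Atp6v1c1, Atp6v1d, Atp6v1e1, Atp6v1f and Atp6v1g1) and the regulatory subunit H (Atp6v1h). Atp6v1g1 was the most abundant V1 gene in FPKM, at 277 over all 6 libraries. Its CPM were 379, 358 and 332 in knockout libraries and 322, 343 and 358 in control libraries, and the groups overlapped. Atp6v1e1 and Atp6v1c1 did not overlap between groups, with 298 to 330 CPM in knockout libraries against 343 to 363 CPM in control libraries for Atp6v1e1. For Atp6v1c1 the ranges were 98.7 to 105 CPM in knockout libraries and 90.4 to 97.7 CPM in control libraries.

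Among 7 genes of the V0 sector, 1 fell and 6 were not called, with a median of −0.05. Here 14.3% were called, against 9.29% of all genes tested. Atp6v0d2 encodes the d2 isoform of the subunit that couples the rotor to the membrane ring, and is known for its high level in osteoclasts and macrophages. It was at 6.49, 5.18 and 3.62 CPM in knockout libraries, from 339, 327 and 242 counts. Control libraries held 19.0, 14.7 and 14.3 CPM, from 1126, 791 and 819 counts. The groups were far apart at this low level, with means of 5.10 ± 1.44 CPM in knockout and 16.0 ± 2.59 CPM in control chondrocytes (SD, n = 3 each). Atp6v0d2 fell by 68.2%, or −1.65 on the log2 scale (SE 0.24; edgeR adjusted p = 0.0102), and all 6 fits without 1 library called it, between −1.84 and −1.45. Atp6v0d2, ENSMUSG00000028238, lies on the minus strand of chromosome 4 from 19876841 to 19922605.

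The widely expressed isoform d1 did not follow it. Atp6v0d1 was the most abundant V0 gene, at 113 FPKM over all libraries, and was at 226, 226 and 237 CPM in knockout libraries and at 228, 213 and 216 CPM in control libraries. Its groups overlapped, and the log2 fold change was 0.07 (SE 0.08; edgeR adjusted p = 0.631). In FPKM, Atp6v0d2 was at 0.0190, 0.0151 and 0.0101 of Atp6v0d1 in knockout libraries, against 0.0549, 0.0456 and 0.0439 in control libraries. The d2 isoform was thus a minor form in both groups. The difference between the changes of the isoforms was not tested.

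The small subunit gene Atp6v0e came nearest to the threshold among the pump genes not called. It was at 183, 189.7 and 176 CPM in knockout libraries and at 246, 269.9 and 211 CPM in control libraries, without overlap. Its log2 fold change of −0.41 (SE 0.11) had an adjusted p of 0.06 in edgeR. That value was 0.0361 in DESeq2, and 0.0329 in edgeR without control replicate 3. Atp6v0c, which encodes the main subunit of the proton-carrying ring, was at 221, 238 and 314 CPM in knockout libraries and at 403, 309 and 295 CPM in control libraries, and the ranges overlapped. edgeR placed the log2 change at −0.38 (SE 0.17; adjusted p = 0.228). The other ring gene Atp6v0b and the genes for the a subunits, Atp6v0a1 and Atp6v0a2, had log2 fold changes of −0.05, 0.06 and 0.32 and were not called.

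The accessory genes Atp6ap1 and Atp6ap2, whose products help to assemble the pump, had no call in edgeR, DESeq2 or limma, and neither was below an unadjusted p of 0.05. Atp6ap2, the more abundant, was at 204, 206 and 201 CPM in knockout libraries and at 182, 205 and 201 CPM in control libraries. Its log2 fold change was 0.06 (SE 0.08; edgeR adjusted p = 0.731), and that of Atp6ap1 was −0.00 (SE 0.08; adjusted p = 0.981). Over the 17 pump genes the median log2 fold change was −0.00, with 2 called lower and 15 not called. The called share of 11.8% was near the 9.29% of all genes tested.

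**Figure D2:**
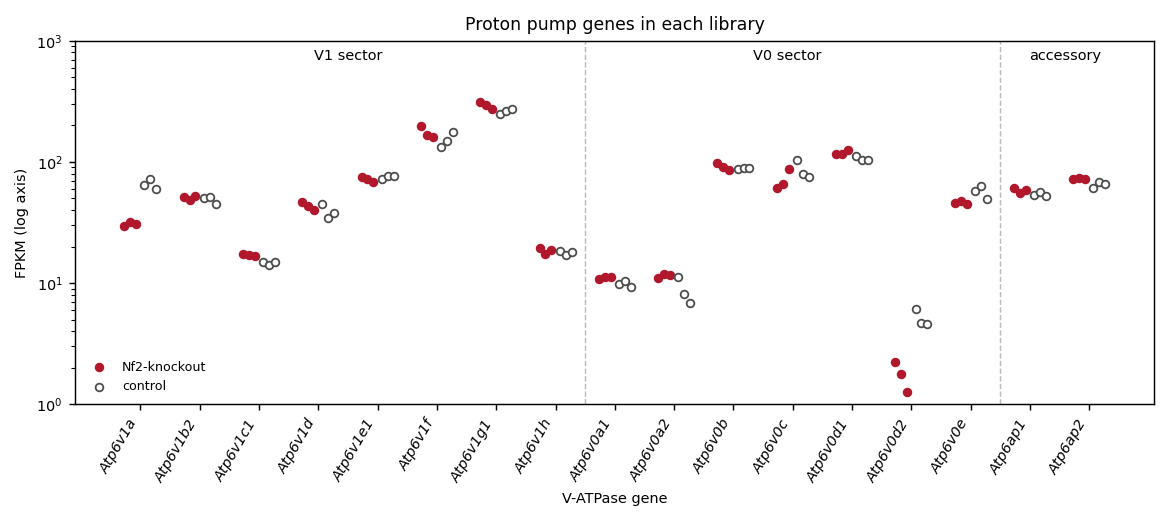
Deposited FPKM (log axis) of the V-ATPase genes in each library, with Nf2-knockout libraries left of control libraries. Atp6v1a is at 29.3 to 31.6 FPKM in knockout libraries and at 60.2 to 72.4 FPKM in control libraries, Atp6v0d2 is the lowest of the pump genes in both groups, and the other genes overlap or lie close together.

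Of 9 cathepsin genes, 1, or 11.1%, fell and 8 were not called, beside 9.29% called among all genes tested. Their median log2 fold change was −0.33. The groups did not overlap for 5 of them, against 32.9% of all genes tested, and 4 had an unadjusted p under 0.05, against 24.8% of all genes. Ctsb encodes cathepsin B, a cysteine protease. It was at 3106, 3597 and 2779 CPM in knockout libraries, against 5158, 5861 and 6542 CPM in control libraries. Every knockout library lay below every control library, with means of 3160 ± 412 CPM in knockout and 5854 ± 692 CPM in control chondrocytes (SD, n = 3 each). Ctsb fell by 46.0%, or −0.89 on the log2 scale (SE 0.14; edgeR adjusted p = 0.0118). Without knockout replicate 1 the adjusted p was 0.0608 at −0.86, while the 5 other fits without 1 library and all 8 other settings called it. Ctsb, ENSMUSG00000021939, lies on the plus strand of chromosome 14 from 63122462 to 63145923. A stretch of 774 bases overlaps Fdft1 on the other strand, which averaged 8320.5 counts a library against 261702 for Ctsb. Whether the counting used strand is not given.

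Ctsd encodes the aspartic protease cathepsin D and was the most abundant of the 39 genes, at 1592 FPKM over all libraries, rank 32 of all genes in the table. It was at 3977, 3706 and 2831 CPM in knockout libraries and at 4355, 5210 and 5034 CPM in control libraries. The groups did not overlap, but the log2 fold change of −0.47 (SE 0.15) had an adjusted p of 0.101 in edgeR, against 0.0371 in DESeq2. Ctsb made up 27.7%, 32.2% and 31.0% of the counts of the 9 cathepsin genes in knockout libraries, against 40.3%, 39.8% and 40.6% in control libraries. Without Ctsb, the summed cathepsins were at 8117, 7585 and 6199 CPM in knockout libraries and at 7634, 8852 and 9553 CPM in control libraries, and the groups overlapped.

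Ctsk, the collagen-cutting cathepsin K of osteoclasts and of fibroblastic cells, was the second cathepsin in FPKM at 675. It was at 1452, 1185 and 965 CPM in knockout libraries and at 959.8, 949.9 and 1288 CPM in control libraries, and the ranges overlapped widely. On the log2 scale the change was 0.17 (SE 0.18; edgeR adjusted p = 0.628). Thus the most abundant cathepsin genes did not all have fold changes of the same sign. Ctsa, whose product also protects beta-galactosidase, was at 525 to 551 CPM in knockout libraries and at 609 to 723 CPM in control libraries, a log2 difference of −0.33 (SE 0.09; edgeR adjusted p = 0.0698). Ctsa overlaps Pltp on the other strand by 502 bases.

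The remaining cathepsins were spread on both sides of 0. Ctsc, a dipeptidyl peptidase that activates serine proteases of immune cells, was at 18.2 to 38.4 CPM in knockout libraries and at 38.6 to 62.7 CPM in control libraries, a log2 difference of −0.69 (SE 0.30; edgeR adjusted p = 0.211). The cysteine protease genes Ctsf and Ctsl were at −0.34 and −0.10, and the groups overlapped. Ctsh, an aminopeptidase, was at 157 to 172 CPM in knockout libraries and at 127 to 155 CPM in control libraries, a log2 difference of 0.24 (SE 0.10; edgeR adjusted p = 0.181). Ctsz, a carboxypeptidase, had a log2 fold change of 0.27 and an adjusted p of 0.328, which was 0.0484 without control replicate 3. Apart from Ctsb and Ctsz, no cathepsin of the list was called in any fit without 1 library.

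Of 7 genes for membrane and lipid-handling proteins, 2, or 28.6%, fell and 5 were not called, with a median of −0.14. Among all genes tested 9.29% were called. Psap encodes prosaposin, cut into the saposins that present lipids to hydrolases. It was at 1666, 1599 and 1589 CPM in knockout libraries, against 1917, 2203 and 2162 CPM in control libraries, and the groups did not overlap. The estimated log2 change was −0.37 (SE 0.09; edgeR adjusted p = 0.0491). Lamp2 encodes a heavily glycosylated membrane protein needed for autophagosomes to mature and, in its A isoform, for chaperone-mediated autophagy. It was at 927, 976 and 882 CPM in knockout libraries, against 1218, 1209 and 1117 CPM in control libraries, and its log2 fold change was −0.35 (SE 0.09; edgeR adjusted p = 0.0494). Both stood at the edge of the threshold: without 1 library, Lamp2 kept its call in 0 of 6 fits and Psap only without control replicate 1. Of the 8 other settings, 2 called each of them. Without 1 library the log2 fold changes lay between −0.39 and −0.30 for Lamp2 and between −0.43 and −0.33 for Psap, and over the 8 other settings between −0.35 and −0.24 for Lamp2 and between −0.37 and −0.27 for Psap. The deposited table does not split Lamp2 by isoform. Psap, ENSMUSG00000004207, lies on chromosome 10 from 60277627 to 60302597, and Lamp2, ENSMUSG00000016534, on chromosome X from 38401357 to 38456454.

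Lamp1, the sister membrane protein gene, was the most abundant of these 7 at 632 FPKM. It was at 1766, 1835 and 1762 CPM in knockout libraries and at 1965, 2032 and 1928 CPM in control libraries. The groups did not overlap, but the log2 fold change of −0.14 (SE 0.08) had an adjusted p of 0.324 in edgeR. Scarb2, also known as LIMP-2, which carries glucocerebrosidase to lysosomes, was at 160 to 177 CPM in knockout libraries and at 201 to 214 CPM in control libraries. edgeR placed the log2 change at −0.30 (SE 0.08; adjusted p = 0.0638). The cholesterol exporters Npc1 and Npc2 had log2 fold changes of −0.12 and 0.15, and the calcium channel gene Mcoln1 of −0.08. These 3 genes overlapped between groups.

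Of 4 glycosidase genes, 1, or 25%, rose and 3 were not called, with a median of −0.16. Among all genes tested 9.29% were called. Glb1 was at 110.0, 109 and 109 CPM in knockout libraries, against 76.7, 87.6 and 86.2 CPM in control libraries. The knockout libraries were nearly equal and all above the control libraries, with means of 109 ± 0.739 CPM in knockout and 83.5 ± 5.92 CPM in control chondrocytes (SD, n = 3 each). Glb1 was higher by 0.39 on the log2 scale (SE 0.08; edgeR adjusted p = 0.0337). Without 1 library at a time its fold change stayed between 0.33 and 0.42, but the call was lost in all 6 fits, at adjusted p-values from 0.0573 to 0.10. Of the 8 other settings, 7 called it. Glb1, ENSMUSG00000045594, lies on chromosome 9 from 114401076 to 114474898. It overlaps Tmppe on the same strand, which averaged 111 counts a library against 5676 for Glb1.

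The glycosidase genes Hexa, Gaa and Gla, which degrade gangliosides, glycogen and globosides, had negative fold changes and were not called. Hexa, the most abundant, was at 624, 615 and 484 CPM in knockout libraries and at 585, 788 and 698 CPM in control libraries, and its groups overlapped. Its log2 fold change was −0.27 (SE 0.15; edgeR adjusted p = 0.321). Gla was at 56.8, 102 and 59.0 CPM in knockout libraries and at 86.3, 77.2 and 82.8 CPM in control libraries, so knockout replicate 2 alone lay above the control libraries. On the log2 scale the change was −0.18 (SE 0.22; adjusted p = 0.686) with all libraries and −0.50 (adjusted p = 0.0497) without that one, both in edgeR.

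**Figure D3:**
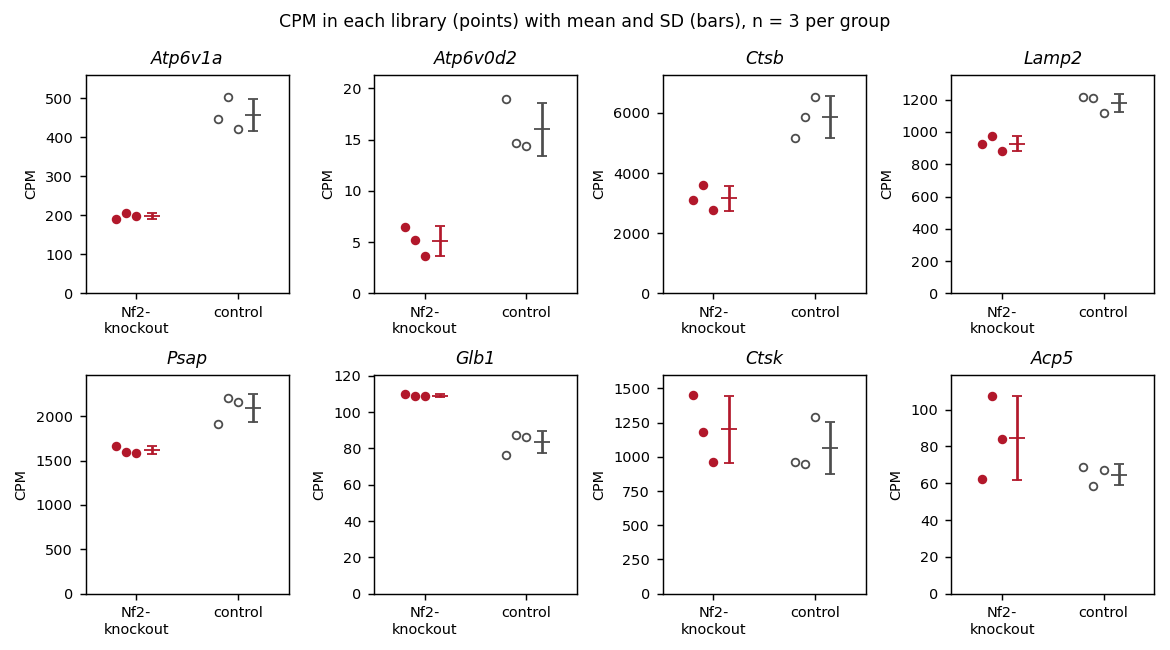
CPM of the 6 called genes and of Ctsk and Acp5 in each library (points), with group means and SD (bars) and Nf2-knockout libraries left of control libraries. Groups are separate for Atp6v1a, Atp6v0d2, Ctsb, Lamp2, Psap and Glb1, and overlap for Ctsk and Acp5.

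Tfeb, the transcription factor gene of the list, was its least abundant gene at 2.33 FPKM. It was at 13.2, 13.2 and 12.1 CPM in knockout libraries and at 11.7, 19.9 and 18.6 CPM in control libraries, and control replicate 1 lay below the knockout libraries. The estimated log2 change was −0.38 (SE 0.20; edgeR adjusted p = 0.305). Acp5 encodes tartrate-resistant acid phosphatase, the histochemical marker of osteoclasts. It was at 62.1, 108 and 84.0 CPM in knockout libraries and at 68.6, 58.4 and 67.3 CPM in control libraries, with overlap. edgeR placed the log2 change at 0.39 (SE 0.19; adjusted p = 0.274).

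Promoter letters were compared because TFEB, TFE3 and MITF bind the CLEAR element, whose core is CACGTG. RefSeq promoters (GRCm38.p6) were found for 30 of the 39 genes, and the 250 bases before each start were searched on both strands. The core stood in 10 of 30 promoters, or 33.3%, against 1358 of 20968 promoters, or 6.48%. The longer form GTCACGTG, which contains the core, stood in 6 of 30, or 20%, against 465 of 20968, or 2.22%. The 10 genes with the core were Atp6v0b, Atp6v1a, Ctsd, Ctsf, Ctsl, Gaa, Gla, Glb1, Lamp1 and Mcoln1. In knockout chondrocytes 1 of them fell, 1 rose and 8 were not called, beside 9.29% called among all genes tested. A match describes these letters only, and no binding was measured. Shown are the promoter of the gene that fell (Atp6v1a, minus strand, chr16:44139260-44139509), that of the gene that rose (Glb1, plus strand, chr9:114400828-114401077) and that of Lamp1, an uncalled gene with 4 cores (plus strand, chr8:13158911-13159160). Each runs 5′ to 3′ on the gene's strand. Capitals mark the core, or the longer form on either strand where it is present.
Atp6v1a: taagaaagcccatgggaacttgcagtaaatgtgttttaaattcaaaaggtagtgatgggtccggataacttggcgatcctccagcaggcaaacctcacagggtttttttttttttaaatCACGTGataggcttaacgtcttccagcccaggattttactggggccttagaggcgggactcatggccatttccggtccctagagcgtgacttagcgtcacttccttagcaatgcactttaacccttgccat
Glb1: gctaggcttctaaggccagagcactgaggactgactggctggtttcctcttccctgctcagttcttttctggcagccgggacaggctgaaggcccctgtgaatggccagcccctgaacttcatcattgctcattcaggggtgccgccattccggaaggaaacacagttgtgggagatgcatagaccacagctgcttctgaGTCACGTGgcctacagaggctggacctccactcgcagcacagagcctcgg
Lamp1: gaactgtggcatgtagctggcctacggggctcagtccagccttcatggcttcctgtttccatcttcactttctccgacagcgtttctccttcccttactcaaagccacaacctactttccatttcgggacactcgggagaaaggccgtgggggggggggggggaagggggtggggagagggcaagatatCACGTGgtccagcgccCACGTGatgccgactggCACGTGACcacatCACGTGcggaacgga
The core begins 131 bases before the RefSeq start in Atp6v1a, whose RefSeq start lies 446 bases from the start in the deposited table. In Glb1 the longer form begins 50 bases before the start. In Lamp1 the cores begin 61, 45, 28 and 15 bases before it, and the third belongs to a longer form on the opposite strand. The log2 fold changes of these genes were −1.20, 0.39 and −0.14. They were chosen by their calls, so this difference follows from the choice, and a part of the core in it was not tested.

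The wider lysosomal programme was read from a list of 94 further genes, of which 89 were tested. In knockout chondrocytes 8 of them fell and 3 rose, or 12.4% called against 9.29% of all genes tested, with a median log2 fold change of −0.08 against −0.01. Without 1 library, 2 to 7 were called lower and 1 to 3 higher, with the lowest count, 2, without knockout replicate 1. Without that library 629 of all genes were called. Lgmn encodes legumain, the asparaginyl endopeptidase that processes cathepsins B, H and L to their mature forms. It was at 439, 559 and 384 CPM in knockout libraries, against 1063, 1209 and 1307 CPM in control libraries. The groups were far apart, and the fold change was −1.37 on the log2 scale (SE 0.16; edgeR adjusted p = 0.00514), and all 6 fits without 1 library called it. Laptm4b, a lysosomal membrane protein gene, was at 72.7, 78.8 and 73.8 CPM in knockout libraries, against 119.6, 143 and 139 CPM in control libraries. Its log2 fold change was −0.84 (SE 0.10; edgeR adjusted p = 0.00539), again called in all 6 such fits. Galc, which encodes galactosylceramidase, fell by 0.81 on the log2 scale (SE 0.12; edgeR adjusted p = 0.0108). Its adjusted p was 0.0548 without knockout replicate 1.

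Among genes of the signalling complex on the lysosome surface, Flcn rose. Flcn encodes folliculin, which activates RagC and RagD and thereby helps to keep TFEB and TFE3 in the cytoplasm. It was at 48.0, 53.8 and 54.7 CPM in knockout libraries, against 22.5, 23.4 and 31.7 CPM in control libraries. Every knockout library was above every control library. Flcn rose by 1.01 on the log2 scale (SE 0.15; edgeR adjusted p = 0.0107) and was called in all 6 fits without 1 library. Rragd, which encodes RagD, was at 50.2, 46.7 and 47.9 CPM in knockout libraries and at 15.7, 15.8 and 39.4 CPM in control libraries. Its log2 fold change of 1.03 (SE 0.35) had an adjusted p of 0.126 in edgeR with all libraries, and of 0.013 without control replicate 3, which stood apart from the other control libraries. Mitf, a relative of Tfeb, fell by 0.61 on the log2 scale (SE 0.11; edgeR adjusted p = 0.0174). It was at 28.4, 25.6 and 28.0 CPM in knockout libraries, against 45.5, 41.5 and 38.1 CPM in control libraries, and kept its call in 2 of 6 fits without 1 library. Tfe3, the other widely expressed relative, had a log2 fold change of −0.10 (SE 0.09; adjusted p = 0.545).

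Autophagy genes gave calls in both directions. Sqstm1, the cargo receptor p62, rose by 0.49 on the log2 scale (SE 0.09; edgeR adjusted p = 0.0195). It was at 695, 629 and 664 CPM in knockout libraries, against 459, 452 and 509 CPM in control libraries. Map1lc3a, which encodes an LC3 protein of the autophagosome membrane, and the initiating kinase gene Ulk1 fell by 0.55 and 0.60. Their adjusted p-values in edgeR were 0.0119 and 0.0176. Without 1 library, calls were kept in 2 of 6 fits for Sqstm1, 4 of 6 for Map1lc3a and 2 of 6 for Ulk1. The other calls were Cstb, a cathepsin inhibitor gene, at 0.41, the sialic acid transporter gene Slc17a5 at −0.51 and the sorting receptor gene Sort1 at −0.57. These were kept in 1, 1 and 0 of 6 such fits.

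Further pump isoforms were called in none of 5 tested genes by edgeR, DESeq2 or limma, and none was below an unadjusted p of 0.05. Among them was Tcirg1, the a3 subunit gene that osteoclasts need to resorb bone. It was at 20.2, 20.7 and 23.5 CPM in knockout libraries and at 26.7, 23.7 and 26.3 CPM in control libraries. On the log2 scale the change was −0.25 (SE 0.11; edgeR adjusted p = 0.213). Atp6v0a4 was the most widely spread of these genes, at 1.44 to 10.6 CPM in knockout libraries and 4.23 to 17.9 CPM in control libraries.

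**Figure D4:**
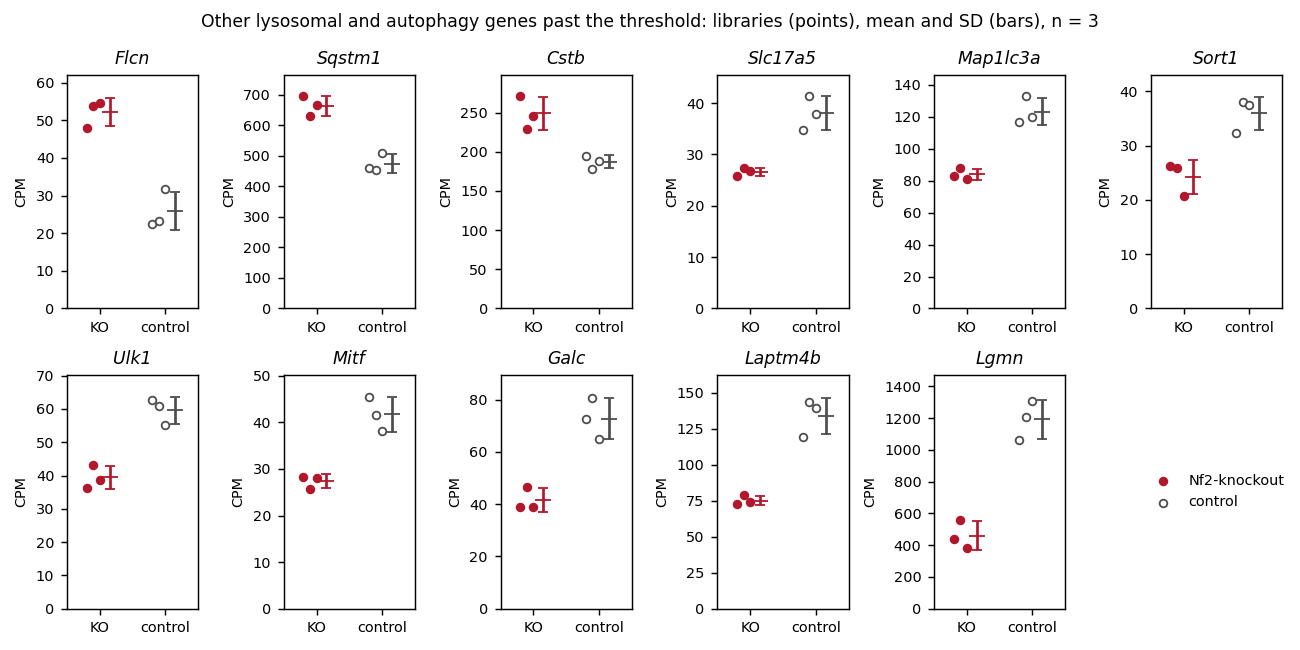
CPM of the 11 called lysosomal and autophagy genes outside the 39, per library (points), with group means and SD (bars) and Nf2-knockout (KO) libraries left of control libraries. Flcn, Sqstm1 and Cstb are higher, and the 8 genes from Slc17a5 to Lgmn lower, in every knockout library than in any control library.

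Because lysosomal genes are abundant in macrophages and osteoclasts, their markers are given beside these results. All 14 tested macrophage markers had negative fold changes, with a median of −2.29. Against 5.18% of all genes tested, 6 of these markers, or 42.9%, were called lower in edgeR. Their summed level was 108, 80.9 and 44.0 CPM in knockout libraries, against 158, 434 and 207 CPM in control libraries, and control replicate 2 was the highest. With all libraries 12 macrophage markers, or 85.7%, had an unadjusted p under 0.05 in edgeR, against 24.8% of all genes tested. Without 1 library edgeR called 0 to 3 of these markers, and 10 to 13 had an unadjusted p under 0.05. The count was 0 without knockout replicate 1 or 3 or control replicate 2 or 3. With all libraries DESeq2 called 10 and limma 3. Lyz2 was the most abundant, at 45.4, 31.6 and 12.5 CPM in knockout libraries and 59.6, 205 and 82.9 CPM in control libraries. Cd68 was at 22.0 to 33.1 CPM in knockout libraries and 43.2 to 54.0 CPM in control libraries, and C1qb at 1.05 to 3.31 CPM in knockout libraries and 7.27 to 27.8 CPM in control libraries. Aif1, the marker not tested, had 0 counts in each knockout library and 0, 0 and 19 counts in control libraries. Ctss, the cathepsin S gene of antigen-presenting cells, was at 5.86, 3.25 and 0.763 CPM in knockout libraries and at 10.4, 33.3 and 13.9 CPM in control libraries. Its log2 fold change of −2.55 (SE 0.74) had an adjusted p of 0.0802 in edgeR and of 0.0333 in DESeq2. Ctss and Lyz2 were both highest in control replicate 2 and lowest in knockout replicate 3. Whether they came from the same cells was not tested. Control replicate 2 held 14.7 CPM of Atp6v0d2, 503 CPM of Atp6v1a, 5861 CPM of Ctsb and 1209 CPM of Lgmn. Without it the log2 fold changes were −1.71, −1.13, −0.89 and −1.36 for these genes. The summed macrophage markers of the groups did not overlap without it either. The part of macrophage RNA in the falls of Atp6v0d2, Ctsb and the other genes was not tested.

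Of 9 osteoclast markers 6 were tested, and 1, Car2, fell (log2 fold change −1.27, SE 0.23; edgeR adjusted p = 0.0183). This is 16.7% of those tested, against 5.18% of all genes tested that were called lower. Car2 encodes carbonic anhydrase 2 and is also found in other cells. Its call was lost without knockout replicate 1 and without control replicate 1. The markers summed to 34.1, 35.9 and 34.6 CPM in knockout libraries, against 62.1, 62.1 and 58.8 CPM in control libraries. The largest parts of this sum were Nfatc1 and Car2, so it follows few genes. Nfatc1 averaged 20.0 CPM in knockout and 22.1 CPM in control libraries, and Car2 8.81 and 21.3 CPM. Dcstamp, needed for osteoclasts to fuse, and Calcr, the calcitonin receptor gene, had 0 counts in all 6 libraries, where 3 counts amount to 0.0449 to 0.0574 CPM. Ocstamp had 0 counts in each knockout library and 24, 7 and 8 counts in control libraries. Mmp9, the gelatinase gene of osteoclasts, was at 0.498, 1.03 and 0 CPM in knockout libraries and at 8.60, 7.14 and 9.53 CPM in control libraries, with an edgeR adjusted p of 0.0521. The other tested markers were not called, with log2 fold changes of −0.78 for Itgb3, −0.45 for Oscar, −0.14 for Nfatc1 and −0.02 for Tnfrsf11a. Acp5 and Ctsk had positive fold changes without a call. The part of osteoclast RNA in the fall of Atp6v0d2 was not tested.

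Markers of fibroblasts summed to 8106, 10321 and 9126 CPM in knockout libraries and to 12004, 13317 and 15354 CPM in control libraries, without overlap. Of these 8 markers, 5 had negative and 3 positive fold changes. Called lower were 2, or 25%, against 5.18% of all genes tested. Lum averaged 837 CPM in knockout and 2881 CPM in control chondrocytes, and Col1a1 averaged 2945 and 2932 CPM. Markers of osteoblasts summed to 23.4, 19.8 and 11.2 CPM in knockout libraries and to 22.7, 16.3 and 20.7 CPM in control libraries. For Ctsb and Ctsd, too, each knockout library lay below each control library. Such a lack of overlap, in either direction, was seen for 32.9% of all genes tested. Whether the mix of mesenchymal cells had a part in the levels of Ctsb and Ctsd was not tested.

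**Figure D5:**
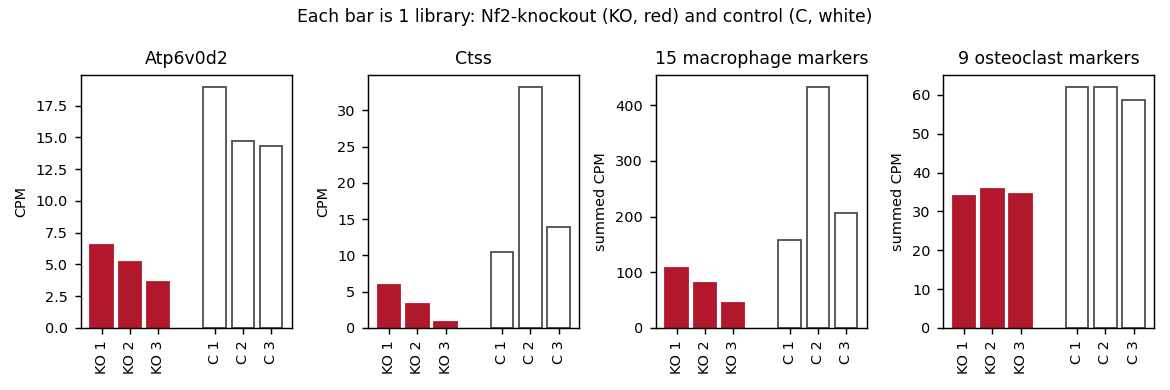
CPM of Atp6v0d2 and Ctss and summed CPM of the macrophage and osteoclast marker lists, 1 bar per library, with Nf2-knockout (KO) libraries left of control (C) libraries. Macrophage markers and Ctss are highest in control replicate 2, at 434 and 33.3 CPM. In control replicates 1, 2 and 3, Atp6v0d2 is at 19.0, 14.7 and 14.3 CPM and the osteoclast sum at 62.1, 62.1 and 58.8 CPM. The part of either cell type in the fall of Atp6v0d2 was not tested.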

How the data were processed

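Poly(A) RNA was sequenced from 3 Nf2-knockout and 3 control libraries, grouped by their titles. Tools listed in the submitters' processing notes are HISAT2 2.0.4, StringTie 1.3.4d, cutadapt 1.9 and edgeR. Their roles, the genome build and strandedness are not given in the sources used here. In 1 table, the authors deposited whole-number counts per gene, not normalised, and FPKM values, which they had scaled by length and depth. How these counts were obtained is not stated, so they may be rounded coverage estimates. Positions are given as GRCm38.

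Counts were tested with edgeR 4.0.16 in R 4.3.3 (filterByExpr, TMM, glmQLFit and glmQLFTest on group), two-sided, with Benjamini-Hochberg adjustment over 18218 genes and a threshold of 0.05. An approximate SE was obtained by dividing the size of the log2 fold change by the root of its F statistic. Fitted fold changes carry a prior count of 0.125. A floor of 3 counts a library covers counting error only. The test was run on simulated counts in which 200 genes were changed, up or down at random. That simulation had no difference in scaling between the groups, so it cannot show how scaling moves these results. Alternatives used DESeq2 1.42.0, other scalings and filters, limma 3.58.1 on log2(FPKM + 1) and log2(FPKM + 0.1), a replicate block, and the fit without each library.

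The members and lists were chosen with earlier results of these data known, so no list was tested as a set. Values per library were given for called members, the most abundant of each role, Acp5, Ctsk, Tfeb and Atp6v0d2, and could be given from each further list for up to 4 genes with the smallest p, and from each marker list for the 3 most abundant by FPKM. Other members shown per library (Atp6v1b2, Atp6v0c, Atp6v0e, Gla), Tfe3, Acan, Aif1, Ocstamp, Dcstamp, Calcr, Itgb3, Oscar and Tnfrsf11a were chosen after their values were seen.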

Additional observations from a re-analysis of the deposited data

How the results depend on the processing

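Atp6v1a and Atp6v0d2 kept their call in all 14 alternative fits, and Ctsb in all but the one without knockout replicate 1. With all libraries edgeR called 1693 genes, 5 of the 39 lysosomal genes lower and 1 higher. DESeq2 called 2618 genes over all, the fit with a replicate block 923, and the fits without 1 library 629 to 1186. The number of lysosomal genes called lower was 7 with DESeq2, 5 with a mean CPM of at least 1, and 3 with DESeq2 size factors, library size only, no filter on low counts, both FPKM pseudocounts and the replicate block, and 2 to 4 without 1 library. The number called higher was 0 with the replicate block in edgeR, with 1 higher at an unadjusted p under 0.05, and 0 to 1 without 1 library. The median log2 fold change of the 39 genes was 0.00119 with library size only, 0.0190 with log2(FPKM + 1) and 0.0192 with log2(FPKM + 0.1), and −0.141 to −0.0471 without 1 library. Over all genes tested the median was 0.0878 with library size only, 0.0440 with log2(FPKM + 1) and 0.0853 with log2(FPKM + 0.1). These settings also moved the balance of all calls: 44.2% were higher with TMM, against 61.5% with library size only, 62.4% with log2(FPKM + 1) and 62.5% with log2(FPKM + 0.1). TMM factors were 1.03, 1.03 and 1.05 in knockout libraries and 0.971, 0.972 and 0.958 in control libraries. Library size only leaves these factors out, which moved the log2 fold changes up by a similar amount for all genes. Why the factors differ between the groups, and the cause of the shifts with FPKM, was not tested.

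Lysosomal genes without a call changed sign in some fits. With library size only, log2(FPKM + 1) and log2(FPKM + 0.1), in that order, log2 fold changes were 0.0571, 0.0618 and 0.0630 for Atp6v1b2, 0.0445, 0.0448 and 0.0469 for Atp6v1h, 0.0435, 0.0446 and 0.0450 for Atp6v0b, 0.0929, 0.0949 and 0.0964 for Atp6ap1, 0.00119, 0.0190 and 0.0192 for Ctsl and 0.0193, 0.0230 and 0.0254 for Mcoln1. Atp6ap1 was at 0.0128 with DESeq2 and at 0.0110 with its size factors in edgeR. Without 1 library the ranges were −0.0300 to 0.163 for Atp6v1d, −0.00561 to 0.210 for Atp6v1f, −0.0898 to 0.0101 for Atp6v0b, −0.0222 to 0.0297 for Atp6ap1, −0.223 to 0.0676 for Ctsl and −0.24 to 0.0107 for the osteoclast marker Nfatc1.

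Replicate numbers are shared between the groups, and correlations of deviations in same-numbered libraries were −0.161, 0.017 and 0.0189. With so few libraries these values cannot tell whether equal numbers mark a shared animal, culture or day. Atp6v0d2 rested on 242 to 1126 counts a library, and Dcstamp and Calcr were at 0 counts throughout.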
